A study of Mus musculus with 9 samples.

Results

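The mRNAs of the nuclear-encoded subunits of the mitochondrial respiratory chain and ATP synthase were examined in mouse liver across feeding states and circadian times. The members were all genes whose symbols begin with Ndufa, Ndufb, Ndufc, Ndufs, Ndufv, Uqcr, Cox4i, Cox5, Cox6, Cox7, Cox8 or Atp5, together with Sdha, Sdhb, Sdhc, Sdhd and Cyc1 and without the assembly factors that begin with Ndufaf. This gave 86 genes of the 20409 named genes in the count files. By their symbols 38 belong to complex I, 4 to complex II, 9 to complex III, 18 to complex IV and 17 to complex V, the ATP synthase. The rule used names only and no measured value. It also takes Cox7a2l of the Cox name family, whose described role lies outside the assembled complexes. Ndufa4, counted here with complex I by its name, is now known as a subunit of complex IV.

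The respiratory chain sits in the inner mitochondrial membrane. Complexes I and II pass electrons from NADH and succinate to ubiquinone, complex III passes them on to cytochrome c, and complex IV passes them to oxygen, while the proton gradient built on the way drives the ATP synthase. Most subunits are encoded in the nucleus and a small set in mitochondrial DNA. In liver the chain reoxidises the NADH and FADH2 from fatty acid oxidation, and it supplies the ATP for gluconeogenesis and urea synthesis in a fast.

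RNA-seq libraries were made from livers of male C57BL/6J mice kept in a 12-h light and 12-h dark cycle (LD). One set of mice had food ad libitum, had none for 16 h between ZT9 and ZT1 (ZT, hours after lights on), or had 16 h without food and then 20 h of refeeding. Another set spent 1 week in LD and then 6 weeks in constant darkness (DD) and was killed at 1 of 6 circadian times (CT, in hours), CT1, CT5, CT9, CT13, CT17 or CT21. RNA of pooled livers gave 1 polyA+ library per condition, and for ad libitum and refed mice the sources used here name no hour of killing. There were thus 9 libraries with 1 per condition. No difference between conditions had a replicate check, and time of day and feeding state cannot be told apart between the feeding libraries.

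Gene totals lay between 43485652 counts (CT9) and 59624294 (ad libitum). Levels are given as CPM, a gene's counts relative to the library size after TMM scaling, which sets libraries on one scale by the bulk of their genes. Ratios carry exact 95% intervals, which cover counting error only and not the variation between mice. The hepatocyte markers Alb, Ttr, Apoa1, Cps1 and Hnf4a were abundant in all 9 libraries, and markers of muscle (7 genes, a summed 0.108 to 0.918 CPM) and testis (3 genes, 0 to 0.0808 CPM) were at or near 0. The summed hepatocyte markers were lowest in the ad libitum library, at 41765 CPM, against 51977 to 92661 CPM in the others. Most of that sum was Alb (32487 CPM ad libitum), and Hnf4a went the other way, with 834 CPM ad libitum against 488 to 803 CPM in the others. A list of 20 acute phase genes, which the liver makes in inflammation, held 23.8% of ad libitum counts, 14.7% at CT1 and 14.3% at CT17, but 1.94% to 4.68% in the other 6. Neutrophil markers (6 genes) were highest in the same 3 libraries, with 56.4, 20.4 and 36.0 CPM in sum against 1.22 to 5.05 CPM elsewhere. Other cell type lists also varied over the 9 libraries. The sums ran from 321 to 728 CPM for Kupffer cells (5 genes) and from 299 to 536 CPM for stellate cells (4). They ran from 230 to 523 CPM for red cells (3) and from 230 to 283 CPM for endothelial cells (4). The part of the acute phase genes and of these markers in the values below was not tested. In pooled tissue, fewer cells of a type and less RNA per cell cannot be told apart.

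The liver expressed nearly the whole set at high levels. Of the 86 members 78 reached 100 counts in at least 1 library, and they are called the expressed members below. Per kilobase of transcript their mean levels ran from 7.79 CPM per kb for Ndufab1, the mitochondrial acyl carrier protein, to 557 CPM per kb for Atp5b, the catalytic beta subunit of the ATP synthase. Their median was 108 CPM per kb against 5.75 CPM per kb over the 11618 genes with as many counts, and 71 of the 78 lay among the top 10% of those genes. The median per kb was lower in complex I (73.2) than in complex II (139), III (151), IV (181) and V (156). The highest genes per kb in the other complexes were Cox4i1 (376), the main subunit 4 of cytochrome c oxidase, Uqcr10 (324), a small subunit of complex III, Ndufa4 (268) and Sdhd (178), a membrane anchor of complex II. The length used is that of the counted RefSeq transcript, so the low values of Ndufab1, Sdhc (41.0) and Uqcrq (51.3), whose counted transcripts are long for the family, depend on it.

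**Figure D1:**
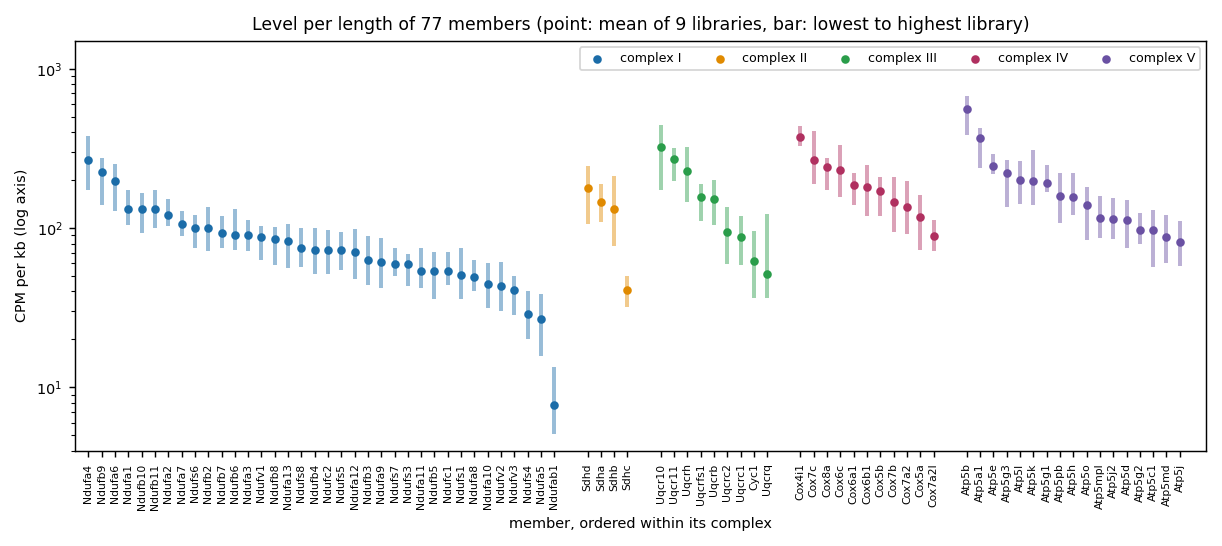
Level per transcript length of 77 of the 78 expressed members, in CPM per kb on a log axis, ordered within each complex. Each point is the mean of the 9 libraries and each bar runs from the lowest to the highest library, with Atp5b at the top (557) and Ndufab1 at the bottom (7.79).

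For several subunits of complex IV with a tissue-specific sister gene, the liver signal came almost wholly from the other gene. Cox4i1 was counted 11483 to 19004 times in a library and its lung-type sister Cox4i2 0 to 11 times. Cox6a1, Cox6b1, Cox8a and Cox7b were counted between 3811 and 9607 times, whereas the heart and muscle form Cox6a2 (at most 6 counts), the testis form Cox6b2 (at most 17), Cox8b (at most 7), Cox8c (at most 2) and Cox7b2 (0 in all 9) were close to absent. A count of 0 allows up to 3 counts. The muscle-type Cox7a1 (23 to 43 counts) and the hypoxia-linked Ndufa4l2 (21 to 55) were low but present in all 9 libraries, and per kb Cox7a2 stood 93.1-fold and Ndufa4 305-fold above them. These 8 genes with few counts are left out of the statements on expressed members, and their ratios rest on at most 55 counts.

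The ad libitum liver stood lowest for almost every member. Its level was below that of all 8 other libraries for 71 of the 78 expressed members, and for 72 of the 82 measured, where 16% of all genes had their lowest level in that library. The added member was Cox6b2, with 1 count ad libitum and 0 counts at CT9, which ranked so only because a 0 was set at 3 counts. The exceptions among the expressed members were Atp5g1, Ndufa1, Ndufa2, Ndufa3, Ndufa8, Ndufc1 and Uqcrq. Summed over the members the level was 6920 CPM ad libitum, 11286 CPM after the fast and 12136 CPM after refeeding. In DD the sum ran from 8108 CPM at CT1 to 10801 CPM at CT13. Relative to each member's median over the 6 DD libraries, the median member stood at -0.49 on the log2 scale ad libitum, at 0.21 after the fast and at 0.39 after refeeding, while the medians over all genes were -0.00, -0.11 and -0.01. All 5 complexes had a negative median ad libitum, between -0.60 (complex II) and -0.45 (complexes I and V).

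The fasted liver had higher levels of most members than the ad libitum liver. Of 82 measured members 48 were at least 1.5-fold higher, where 19.5% of all genes were, and 1 was at least 1.5-fold lower (20.2% of all genes), Cox4i2 with 1 against 11 counts. At 2-fold the count was 15 members (11.1% of all genes). Both the 48 and the 15 include Cox6b2, with 17 against 1 counts, which passed the filter only through its fasted counts. The median log2 ratio was 0.66 against -0.05 over all genes, and 78 of 82 were above 0 (46.7% of all genes). The median was 0.57 in complex I, 0.57 in II, 0.76 in III, 0.66 in IV and 0.76 in V. The 7 core subunits of complex I, which carry its flavin and iron-sulfur centres, had a median of 0.42 and its 31 accessory subunits 0.60.

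Uqcr10 (GRCm38.p6, chr11:4701968-4704344) had the highest ratio of the expressed members. It stood at 75.0 CPM ad libitum, 187 CPM fasted and 193 CPM refed, against a lowest of 109.7, a median of 138 and a highest of 149.8 CPM in the 6 DD libraries. Both the fasted and the refed liver were therefore above, and the ad libitum liver below, every DD library. The fasted level was 2.49-fold that ad libitum (log2 1.32, interval 1.26 to 1.37). Ndufa5 (chr6:24518662-24527690), an accessory subunit of complex I, stood at 13.8, 33.5 and 29.9 CPM in the ad libitum, fasted and refed libraries and at 16.4 to 27.0 CPM in DD, again with no overlap. Sdhd (chr9:50596340-50603849) stood at 129.7 CPM ad libitum, 301 CPM fasted and 271 CPM refed, and at 155 to 259 CPM in DD.

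Other members above 2-fold were spread over the complexes. In complex III they were Uqcrh (log2 1.15), the hinge protein that binds cytochrome c1, and Uqcrc2 (1.10), a core protein. In complex IV they were Cox7b (1.16), Cox7c (1.11), Cox7a2 (1.10) and Cox6c (1.08), all small accessory subunits. Complex V gave Atp5c1 (1.14), the central gamma stalk, and Atp5md (1.01), and complex I also gave Ndufa4 (1.13) and 2 members at 1.02 and 1.01. Cox6b2 had a higher ratio, but from 17 counts against 1.

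Members of the same complexes also differed little. Sdha, the flavoprotein of complex II, had a log2 ratio of 0.25. Atp5e, the epsilon subunit of F1, and Uqcrq both gave 0.21, and Cox6a1 gave 0.23. Ndufa8 (chr2:36036324-36049338), an accessory subunit of complex I, stood at 41.1 CPM ad libitum, 36.1 CPM fasted and 47.3 CPM refed and at 34.8 to 54.6 CPM in DD, so that all 3 feeding libraries lay within the DD range. Its fasted level was below that ad libitum (log2 -0.19, interval -0.28 to -0.09), with -0.13 under DESeq2 scaling and -0.00 under total-count scaling.

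**Figure D2:**
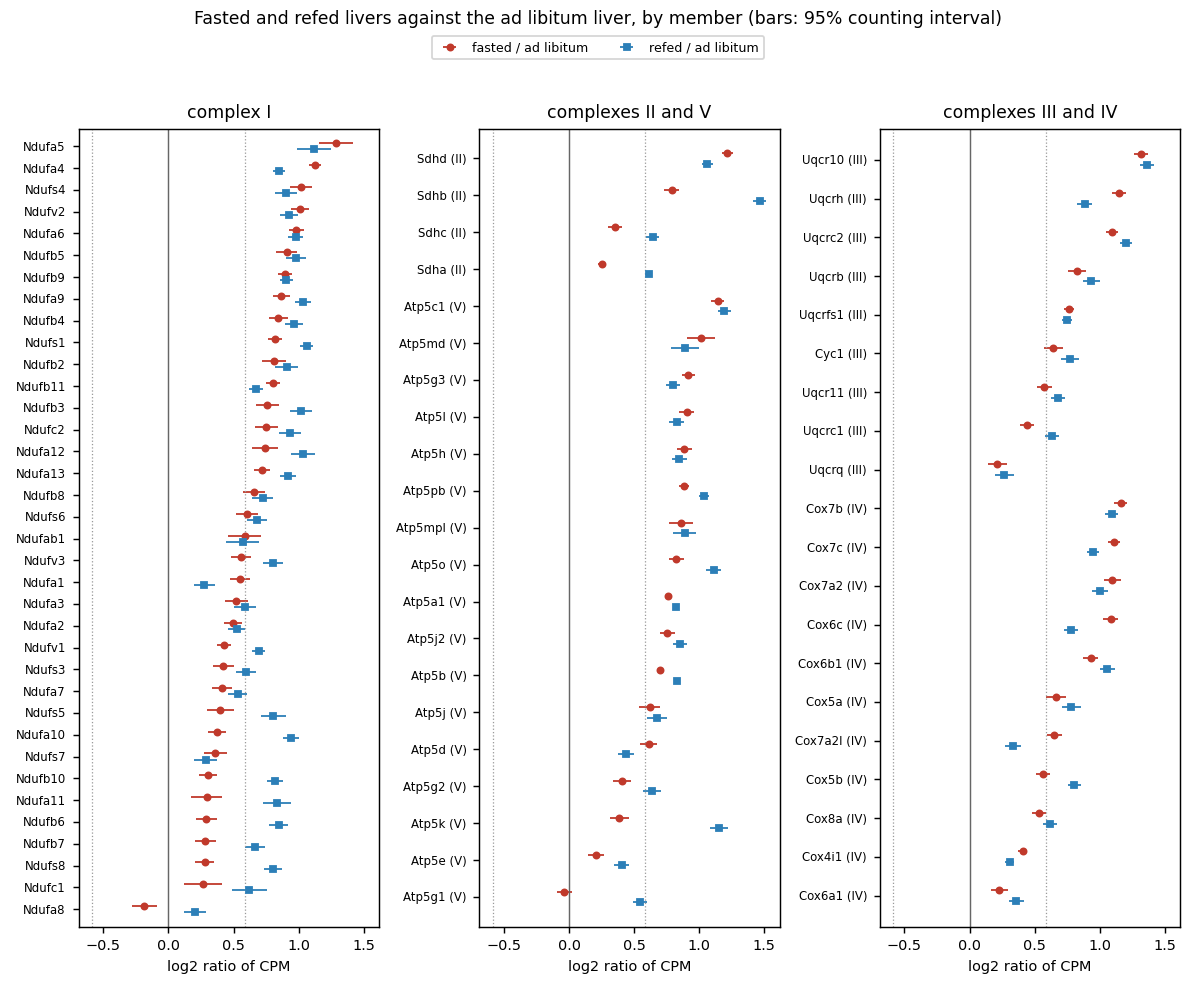
Log2 ratios of the fasted (red circles) and the refed (blue squares) to the ad libitum library for 77 of the 78 expressed members, with 95% counting intervals, dotted lines at 1.5-fold and the members of a complex ordered by the fasted ratio. Nearly every point lies above 0, from -0.19 (Ndufa8) to 1.32 (Uqcr10) after the fast and from 0.21 (Ndufa8) to 1.46 (Sdhb) after refeeding.

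After refeeding even more members stood above the ad libitum level. Of 81 measured members 65 were at least 1.5-fold higher (16.7% of all genes) and 2 were at least 1.5-fold lower (17.4% of all genes), the rarely counted Ndufa4l2 and Cox4i2. At 2-fold 16 were higher (7.71% of all genes). The median log2 ratio was 0.81 against -0.03 over all genes. It lay between 0.77 and 0.85 in every complex, and the core subunits of complex I had a median of 0.69. Sdhb, the iron-sulfur subunit that hands electrons from the flavin of complex II towards ubiquinone, was highest. The gene lies at chr4:140961271-140979198. It stood at 87.8 CPM ad libitum, 152 CPM fasted and 242 CPM refed and at 109.6 to 162 CPM in DD, and its refed level was 2.76-fold that ad libitum (log2 1.46, interval 1.41 to 1.51). Uqcr10 (1.36), Uqcrc2 (1.20), Atp5c1 (1.19) and Atp5k (1.15), subunit e of the ATP synthase, came next. The refed level was the highest of all 9 libraries for 42 of 82 members (13.8% of all genes), and the fasted level for 20 of 82 (16.6%). The fasted level was the lowest of all 9 for 2 of 82 members, where 21.4% of all genes were lowest in that library. They were Cox4i2 and Atp5g1. Cox4i2 had 1 count fasted and 0 counts at CT13, and it ranked so only because a 0 was set at 3 counts. Atp5g1 was lowest under TMM scaling but not under total-count or DESeq2 scaling.

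The fasted and the refed liver differed little from each other. Refed against fasted, 2 of 81 members were at least 1.5-fold higher (15.4% of all genes) and 1 at least 1.5-fold lower (15.3%), Cox6b2 with 4 against 17 counts. The median log2 ratio was 0.10 against 0.04 over all genes. The pair above 1.5-fold was Atp5k, at 51.6 CPM ad libitum, 67.5 CPM fasted and 114.7 CPM refed (log2 0.77 against fasted, interval 0.70 to 0.83), and Sdhb (0.68). Atp5k was above its DD range of 63.1 to 82.5 CPM in the refed liver and within it in the fasted liver. In complex II, Sdha (0.36) and Sdhc (0.29) stood higher after refeeding and Sdhd (-0.16) lower. Complex IV had the lowest median (-0.09), with Cox7a2l at -0.32 and Cox6c at -0.30. Ndufa4 gave -0.28. These comparisons share the same 3 libraries and are not separate observations.

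The fasted and the refed liver differed less from the DD livers than from the ad libitum liver. Against the mean log2 level of the 6 DD libraries, 8 of 81 members were at least 1.5-fold higher in the fasted liver and 8 of 80 in the refed liver, where 14.6% and 8.96% of all genes were. The members' medians were 0.19 and 0.39. Without CT1 and CT17, the DD libraries with many acute phase reads, the counts were 4 of 81 and 6 of 80, where 15.4% and 10.7% of all genes were, with members' medians of 0.16 and 0.36. These member shares lay below or near those of all genes. Against the CT1 library alone 31 of 81 members were at least 1.5-fold higher in the fasted liver (15.8% of all genes). The ad libitum library itself stood at least 1.5-fold below the mean of the 6 DD libraries for 14 of 81 members (13.6% of all genes) and above it for 1 (11.5%). Without CT1 and CT17, 27 of 81 members were lower and 1 was higher (14.1% of all genes higher). The share of all genes lower was not computed for that set. The median there was -0.51 for members and -0.02 over all genes. In direction, 41 of 81 members in the fasted and 57 of 80 in the refed liver exceeded all 6 DD libraries, where 21.6% and 20.9% of all genes did. The 41 were 40 expressed members and Cox6b2, which passed the filter only through its 17 fasted counts. The ad libitum liver lay below all 6 for 71 of 81 (21.9% of all genes).

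The make-up of the mRNAs for subunit c of the ATP synthase differed between the libraries. Atp5g1, Atp5g2 and Atp5g3 encode the same mature protein, which forms the rotating ring of the enzyme, behind different import sequences. Per kb Atp5g1 made up 44.4% of the 3 mRNAs ad libitum, 31.6% fasted and 41.0% refed, and 34.6% to 41.9% in DD. Atp5g3 showed the reverse, with 35.0% ad libitum, 48.3% fasted and 38.6% refed, and Atp5g2 stayed between 16.5% and 20.7% in all 9 libraries. Each share rests on 3016 to 10866 counts per gene and library. Atp5g1 itself stood at 102 CPM ad libitum, 99.7 CPM fasted and 149.2 CPM refed. Its fasted ratio was close to 0 and took its sign from the scaling (log2 -0.04 under TMM, 0.02 under DESeq2 scaling and 0.15 under total-count scaling). Atp5g3 was 1.89-fold higher in the fasted than in the ad libitum liver. Among the 6 DD libraries the share of Atp5g1 was highest at CT17 (41.9%) and CT1 (39.3%), the pair with many acute phase reads, and 34.6% to 35.5% at the other times. Whether the shares follow the acute phase reads was not tested.

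Genes that work with the chain were compared in the same libraries. Over all genes 19.5% were at least 1.5-fold higher and 20.2% at least 1.5-fold lower in the fasted than in the ad libitum liver. Of 48 assembly factors 6 were at least 1.5-fold higher and 4 lower in the fasted than in the ad libitum liver, with a median log2 ratio of 0.17. The highest were Sco2 (1.45), which delivers copper to complex IV, and Coa6 (1.06), and the lowest Ndufaf5 (-0.86) and Bcs1l (-0.81). Of 13 enzymes of the TCA cycle 6 were higher and 0 lower (median 0.47), with Fh1 at 1.36 and Suclg1 at 1.17. Of 15 genes for electron carriers and ubiquinone synthesis 5 were higher and 0 lower (median 0.30), led by Etfdh, which feeds electrons from fatty acid oxidation to ubiquinone, at 1.89 and by cytochrome c (Cycs) at 1.19. Etfdh stood at 177 CPM ad libitum, 655 CPM fasted and 306 CPM refed, so the refed liver stood between the other 2. Of 7 measured genes for ADP/ATP exchange and proton leak 1 was higher, the ADP/ATP carrier Slc25a5 (0.66), and 0 were lower.

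Ribosomal protein genes had smaller median ratios. The 78 mitochondrial ribosomal protein genes had a median of 0.07 after the fast, with 12 at least 1.5-fold higher and 3 lower (19.5% and 20.2% of all genes). After refeeding their median was 0.42, with 24 higher and 0 lower (16.7% and 17.4% of all genes). The 77 cytosolic ones had medians of 0.20 and 0.38. After refeeding the medians were 0.36 for the assembly factors, 0.66 for the TCA cycle, 0.69 for the carriers and 0.40 for ADP/ATP exchange. Of 14 regulators of mitochondrial genes 5 were higher and 1 lower in the fasted liver (19.5% and 20.2% of all genes), with a median of 0.17. The coactivator Ppargc1a stood at 3.84 CPM ad libitum, 13.8 CPM fasted and 6.33 CPM refed, and its nuclear receptor partner Esrrg at 0.736, 5.19 and 1.85 CPM. Pprc1, a relative of Ppargc1a, gave 10.6, 4.68 and 5.14 CPM. After refeeding the regulators had a median of 0.03, with 3 of 14 higher and 2 lower (16.7% and 17.4% of all genes). The part of the regulators in the members' levels was not tested. The 5 hepatocyte markers had medians of 1.07 after the fast and 0.71 after refeeding, with Hnf4a in the opposite direction (-0.39 and -0.77). The acute phase genes had medians of -3.29 and -3.05.

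Most members have short mRNAs. The median length of the expressed members was 751.5 bases against 2985 over all genes, and 51 of the 78 were under 1000 bases. Other genes of 500 to 1000 bases had a median log2 ratio of 0.16 after the fast and 0.31 after refeeding, against 0.66 and 0.81 for the 42 members of that length. Members of 1000 to 2000 bases had medians of 0.76 and 0.90, where other genes had -0.01 and 0.08. The 9 members under 500 bases had medians of 0.57 and 0.89, where other genes had 0.20 and 0.26. The 6 members of 2000 to 4000 bases had medians of 0.48 and 0.73, where other genes had -0.07 and -0.04. The genes were not matched for level, and the part of length in these ratios was not tested.

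In DD the members had a smaller median ratio between highest and lowest library than all genes had, without matching for level. The cosine test for a 24-h rhythm (edgeR quasi-likelihood F test, Benjamini-Hochberg adjustment over 14021 genes) called 0 of 80 members and 0% of all genes. At an unadjusted p under 0.05 it took 1 member, Ndufa5, and 9.17% of all genes. DESeq2 called 0 members (3 unadjusted) and 377 genes, and limma-voom 0 (1 unadjusted). The smallest adjusted p of a member was 0.528 (edgeR). With 6 libraries and 3 residual degrees of freedom, the lack of calls does not show that rhythms are absent. The median ratio of the highest to the lowest DD library was 0.43 on the log2 scale for members and 0.71 for all genes. The members are mostly highly expressed, whereas all genes include any with at least 10 counts in the highest DD library. How far this difference in level enters the medians was not tested.

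A ratio of at least 2-fold between highest and lowest DD library was found for 3 of 80 members, and all 3 were highest at CT13. Of all genes, again not matched for level, 32.7% had such a ratio. Uqcrq (chr11:53427922-53430831), a small subunit of complex III, stood at 62.7 CPM (CT1), 55.1 (CT5), 96.0 (CT9), 186 (CT13), 56.9 (CT17) and 59.4 (CT21). The CT13 library was thus far above the rest, with 9022 counts, and the ratio to CT5 was 3.38-fold (log2 1.76, interval 1.70 to 1.82). Ndufab1 stood at 21.02, 25.1, 32.6, 47.0, 20.0 and 27.9 CPM at the same times (log2 1.23 between CT13 and CT17). Cyc1, the cytochrome c1 of complex III, stood at 69.4, 102, 115, 147, 75.8 and 102 CPM (log2 1.08 between CT13 and CT1). Uqcrc1, a core protein of complex III, came next at 0.78, highest at CT13 (196 CPM) and lowest at CT17 (114 CPM). Without the CT13 library 0 members reached 2-fold, and without CT1 and CT17 only Uqcrq did.

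**Figure D3:**
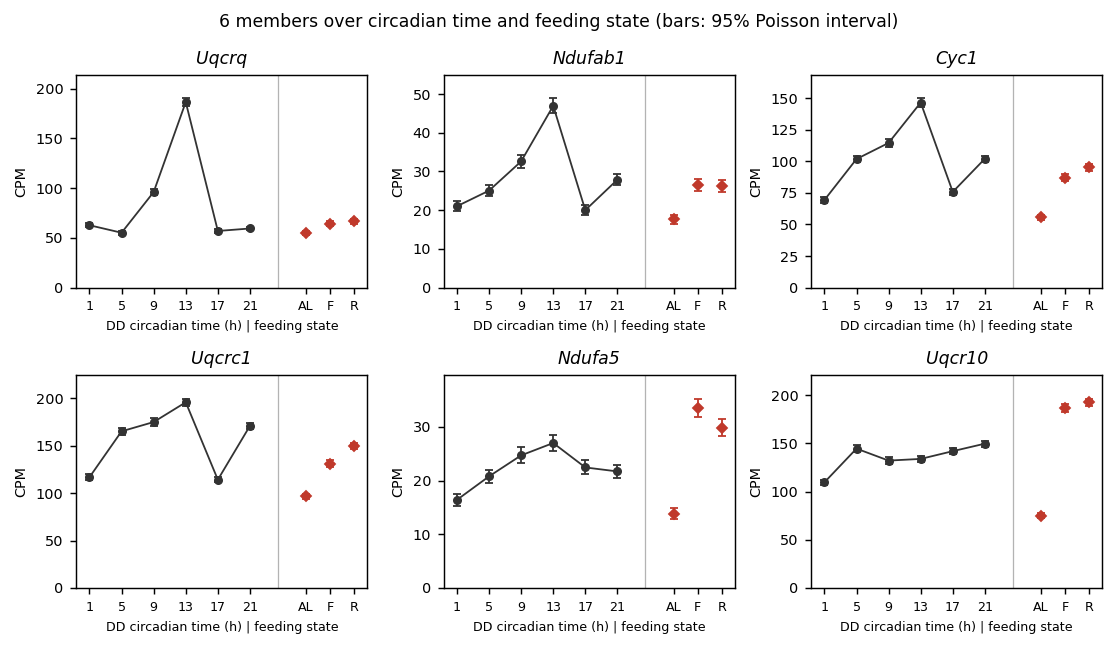
CPM of 6 members in the 6 DD libraries (black, joined over circadian time in hours) and in the ad libitum (AL), fasted (F) and refed (R) libraries (red diamonds), with 95% Poisson intervals. Uqcrq (186 CPM), Ndufab1 (47.0) and Cyc1 (147) are highest at CT13, whereas Ndufa5 and Uqcr10 are highest in the fasted or refed liver and lowest ad libitum.

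The times of the extremes were shared by many members. The highest DD library was CT13 for 40 of the 78 expressed members, where 19.8% of all genes were highest at that time, CT17 for 22 (20.9% of all genes), CT21 for 13 (16.7%) and CT5 for 3 (13.4%). The lowest was CT1 for 63 of 78, where 22.1% of all genes were lowest. Acute phase reads were many at CT1 and CT17, and their part in these levels was not tested. The members' median was -0.24 at CT1, where these reads took 14.7% of counts, and 0.02 at CT17, where they took 14.3%. Complexes II (-0.40 and -0.21) and III (-0.33 and -0.04) had negative medians at both times. The medians of complexes I (-0.23 and 0.04), IV (-0.21 and 0.01) and V (-0.23 and 0.04) were negative at CT1 and positive at CT17.

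Promoter sequences were read for the 69 members found in the RefSeq promoter table (GRCm38.p6, 250 bases before to 50 after the start of each gene). The NRF1 letters (GCGCA, any base, GCGC) were present on either strand in 17 of 69 members (24.6%), against 5.19% of all 27025 genes in the table and 11.6% of the 9382 expressed in these livers. The letters CCGGAAG of ETS factors such as GABP were present in 17 (24.6%, against 9.93% and 20.1%), and AAGATGGC of YY1 in 10 (14.5%, against 3.19% and 5.36%). At least 1 of the 3 was in 38 members (55.1%, against 16.4% and 32.4%). The ERR letters TCAAGGTCA were in 2 members (2.9%, against 0.466% and 0.298%) and NF-Y's CCAAT in 30 (43.5%, against 41.1% and 43.3%). TATAAA was in 8 (11.6%, against 15.7% of all and 9.48% of expressed genes) and the E-box CACGTG in 6 (8.7%, against 8.09% and 12%), so that the direction depends on which genes they are set against. Some of the letters can overlap, and a match is a description of the sequence, not of binding.

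Members with and without these letters had overlapping ratios, and an effect of the letters was not tested. The 38 with NRF1, ETS or YY1 letters had a median log2 ratio of 0.61 after the fast (-0.19 to 1.29) and the 27 expressed members with none of them 0.72 (-0.04 to 1.32). After refeeding the medians were 0.82 and 0.83. The 250 bases before the start are shown for the members with the highest and the lowest fasted ratio and for Sdhd, which has letters of both NRF1 and ETS. In GRCm38.p6 they lie at chr11:4704345-4704594 (Uqcr10), chr9:50603850-50604099 (Sdhd) and chr2:36049339-36049588 (Ndufa8), all on the minus strand, and capitals mark the NRF1 or ETS letters.
Uqcr10: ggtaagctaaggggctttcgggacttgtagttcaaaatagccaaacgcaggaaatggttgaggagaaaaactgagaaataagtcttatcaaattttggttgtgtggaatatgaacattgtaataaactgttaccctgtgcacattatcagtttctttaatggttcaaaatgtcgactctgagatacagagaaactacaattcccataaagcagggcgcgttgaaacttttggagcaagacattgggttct
Sdhd: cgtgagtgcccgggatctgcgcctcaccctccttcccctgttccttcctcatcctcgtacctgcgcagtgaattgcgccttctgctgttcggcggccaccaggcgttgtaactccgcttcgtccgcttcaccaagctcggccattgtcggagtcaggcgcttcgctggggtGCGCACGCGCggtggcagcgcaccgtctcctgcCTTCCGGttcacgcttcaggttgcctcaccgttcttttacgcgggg
Ndufa8: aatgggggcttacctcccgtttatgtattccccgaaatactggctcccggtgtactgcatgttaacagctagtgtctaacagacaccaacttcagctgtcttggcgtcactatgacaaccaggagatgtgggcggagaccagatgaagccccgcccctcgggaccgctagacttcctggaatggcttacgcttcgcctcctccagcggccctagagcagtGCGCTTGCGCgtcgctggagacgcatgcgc
Uqcr10, 2.49-fold higher in the fasted liver, has none of the 3 motifs in its window. Sdhd, 2.32-fold higher, has the NRF1 letters beginning 79 bases and the ETS letters 46 bases before the start. Ndufa8, with the lowest ratio, has the NRF1 letters 30 bases before it.

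Some members overlap other genes in the annotation. Exons of 27 of the 86 members overlap those of another gene, 3 of them on the same strand, and the use of strand in the counting is not given in the sources used here. Processed pseudogene copies of respiratory chain genes are common in the mouse genome, and how reads with several matches were counted is likewise not given. The levels of these members are uncertain to that extent.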

How the data were processed

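The authors mapped 150-base paired reads of 9 polyA+ liver libraries to GRCm38/mm10 and deposited whole-number counts for 27457 RefSeq transcripts per library. Alignment was by TopHat2 2.0.13 according to the submitters' processing notes. The counting program is not given in the sources used here. Their methods name FPKM, but the files hold counts. Symbols came from the RefSeq table (26390 transcripts) and GENCODE M21 (115). The 952 unnamed transcripts, 0.346% to 0.817% of counts, were left out. The transcript with the highest total stood for its gene.

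Libraries were scaled by TMM in edgeR 4.0.16 (R 4.3.3). Feeding libraries were compared as log2 ratios for genes with at least 10 counts in the higher library. A library at 0 was set at 3 counts. Intervals are exact conditional binomial for ratios and exact Poisson for CPM, at 95%. With 1 library per condition these ratios have no p-value. The DD rhythm was fitted with a cosine and sine of 24 h over the 6 DD libraries (minimum count 10, threshold 0.05), with DESeq2 1.42.0 and limma 3.58.1 as alternatives, and its p-values measure the spread about the cosine. The fit and the ratio rule were tested on simulated data. The simulated rhythms were larger than the members' median fitted amplitude (0.12 on the log2 scale). They therefore do not show the power of the fit at that amplitude. Ratios and figures used pandas 2.3.3, scipy 1.17.1, matplotlib 3.10.9 and numpy 2.4.6 under Python 3.11.15.

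Named members are the extremes of each complex and comparison, sister genes, complex II and the leading DD members. Other lists give their 2 highest and 2 lowest genes at 100 counts or more, of which those discussed are printed. Values of 1 expressed member are not reported here, and it enters only counts, medians and unlabelled points. Members, lists and rules were chosen with earlier results of these data known, and none is independent evidence.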

Additional observations from a re-analysis of the deposited data

How the results depend on the processing

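No paired analysis was possible because each condition has 1 library and the labels give no replicate numbers. Of 95 values recomputed under other settings, 70 stayed within 1.5 times and 25 did not, and 20 of the 95 were chosen after seeing the data. Total-count scaling moved the median of all genes by 0.18 (fasted) and 0.20 (refed) on the log2 scale against ad libitum, and the members by as much (medians 0.84 and 1.01).

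At a fold of 2, 15 members were higher in the fasted and 16 in the refed than in the ad libitum library, and 0 in the refed than in the fasted. At 1.5-fold, total-count scaling gave 4 higher in the refed than in the fasted library, in place of 2. With at least 100 counts, 0 members were lower in each of the 3 comparisons. Without a filter 2 were lower after the fast. In place of the ad libitum library, the fasted library had 8 members higher and 0 lower than the mean of the 6 DD libraries, 4 and 0 against CT5, CT9, CT13 and CT21, 31 and 0 against CT1, and 1 and 2 against refed. The refed library had 6 higher and 1 lower against the 4 DD libraries and 8 and 1 against all 6. The fasted library was lowest of all for 2 members, Atp5g1 and Cox4i2, and for 1, Cox4i2, under total-count or DESeq2 scaling. Cox4i2 ranked so only because its 0 at CT13 was set at 3 counts. Without the ad libitum, CT1 and CT17 libraries the fasted library was lowest for 14 of 81 members. The share of all genes for that set of libraries was not computed, so this count is not read as a result about the members. The count at 2-fold in DD ran from 0 (without CT13) to 3 when each library was left out, and was 1 without CT1 and CT17. The rhythm test called 0 members under every alternative run. Why these counts moved was not tested beyond the change of setting itself.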
